A study of Mus musculus with 2 samples.

Results

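The genes described here encode the non-granzyme proteins of cytotoxic granules and the serpins that hold granule proteases in check: perforin (Prf1), serglycin (Srgn), Nkg7, the cathepsins C and W (Ctsc, Ctsw), the chymase Cma1 and the intracellular serpins Serpinb9, Serpinb9b, Serpinb6b and Serpinb6a. They were taken by symbol, and every probe set annotated to exactly 1 of these symbols was used. This gave 10 of 18194 named genes and 14 of 45101 probe sets. The study profiled natural killer (NK) cells sorted by flow cytometry from livers of naive wild-type mice of the B6 strain, as DX5- NK1.1+ CD3- cells and as DX5+ NK1.1+ CD3- cells. DX5 is an antibody against the integrin alpha 2 chain (Itga2, CD49b), and both sorts required the NK cell receptor NK1.1 and absence of the T cell marker CD3. Each population was measured on 1 Affymetrix expression array, so n = 1 for DX5- cells and n = 1 for DX5+ cells. The labels used here do not state the number, age or sex of the mice, or whether animals were pooled. No value has a spread between samples and no difference was tested; every ratio describes these arrays.

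A killer cell stores its weapons in secretory lysosomes. Serglycin is the proteoglycan on which the granule contents are packed, cathepsin C trims the inactive granzyme precursors into active proteases, and perforin opens the target membrane so that granzymes can enter. Granzymes that leak into the killer cell's own cytosol meet serpins of clade B, which trap a protease by offering it a bait loop and are used up in doing so.

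Intensities are linear signals of the MAS5 algorithm in arbitrary units, comparable between the arrays for a given probe set and not between probe sets. For each array the detection limit was the value that 95% of 151 probe sets for silent gene families, such as olfactory receptors, did not exceed. This limit came to 76.0 for DX5- cells, against 82.3 for DX5+ cells. All 10 genes were above the limit on both arrays, as were 9366 named genes in all, and 10652 were above it on at least 1 array. Of the 15 NK cell and ILC1 markers 14 had a probe set of their own and all of these were above both limits; Klrb1c, the NK1.1 gene, was the exception. By the brightest probe sets as deposited, the NK cell transcription factor gene Eomes was the 1 marker of them at least 2-fold apart. Its intensity was 1991 in DX5- cells, against 16107 in DX5+ cells. Klrc1, another of these markers, had a dimmer probe set at 4959 in DX5- cells, against 2136 in DX5+ cells. In DX5- cells 1 marker was past 2-fold higher with centring on the array median or with the dimmest detected probe set. With scaling to spike-in controls 2 were, and with the mean over probe sets 0. Itga2 read 29.0, below the limit, in DX5- cells, against 105 in DX5+ cells, at least 1.38-fold lower. Cd3g, a CD3 chain gene, read 14036 in DX5- cells, against 1072 in DX5+ cells, and CD3 on the surface was a criterion for exclusion in both sorts. Of the 13 detected T cell markers 7 were past 2-fold higher and Lef1 was past 2-fold lower. With the mean over probe sets 4 were past 2-fold higher, with an offset of 100 added 5, and under the 4 other scalings described below 8 or 9. The median log2 ratio of the T cell markers was 1.33, and 0.83 with the mean over probe sets. The summed intensity of all 14 on the array was 31564 in DX5- cells, against 15935 in DX5+ cells. Cd3g alone gave 14036 and 1072 of these sums, so most of the difference between them came from this gene. The part of T cell transcripts in the ratios of the 10 genes was not tested. Where a gene had several probe sets, the SD of their log2 ratios was 0.34 (4397 genes), with 0.42 for the dimmest of 4 equal groups of genes and 0.24 for the brightest; this covers probe noise only.

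The 10 genes fell into a small group far apart between the arrays and a larger group close together. In DX5- cells Cma1, Serpinb9b and Prf1 were lower by 2-fold or more, and Serpinb6a was higher by 2-fold or more. The other 6 genes, Srgn, Nkg7, Ctsc, Ctsw, Serpinb9 and Serpinb6b, were less than 1.5-fold apart. Among all 10652 detected genes 5.65% (602 genes) were lower by this much in DX5- cells, 3.76% (400 genes) were higher by this much and 75.1% less than 1.5-fold apart. Thus 3 of 10 were lower beside a background of 5.65%, 1 of 10 was higher beside 3.76%, and 6 of 10 were close together beside 75.1%. At 4-fold, Cma1 and Serpinb9b were lower, beside a background of 0.882%, and no member was higher, beside 0.667%. The median log2 ratio (DX5- minus DX5+) of the 10 genes was -0.13, against -0.016 over all detected genes. Arrays scaled to the 18 spike-in controls moved the median of all genes to 0.20, and centring on the array median moved it to 0.12. With these scalings the share of higher genes among those past 2-fold was 65.2% and 56.7%, against 39.9% as deposited, and the median of the 10 genes was 0.10 and 0.022, so its sign is not fixed. The counts of 1 higher and 3 lower were the same under each of the 4 other scalings. With the mean over probe sets, or with the dimmest detected one, 2 were lower, without Prf1, and with an offset of 100 added 0 were higher. In bulk samples, fewer cells with a transcript and less of it per cell cannot be told apart.

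**Figure D1:**
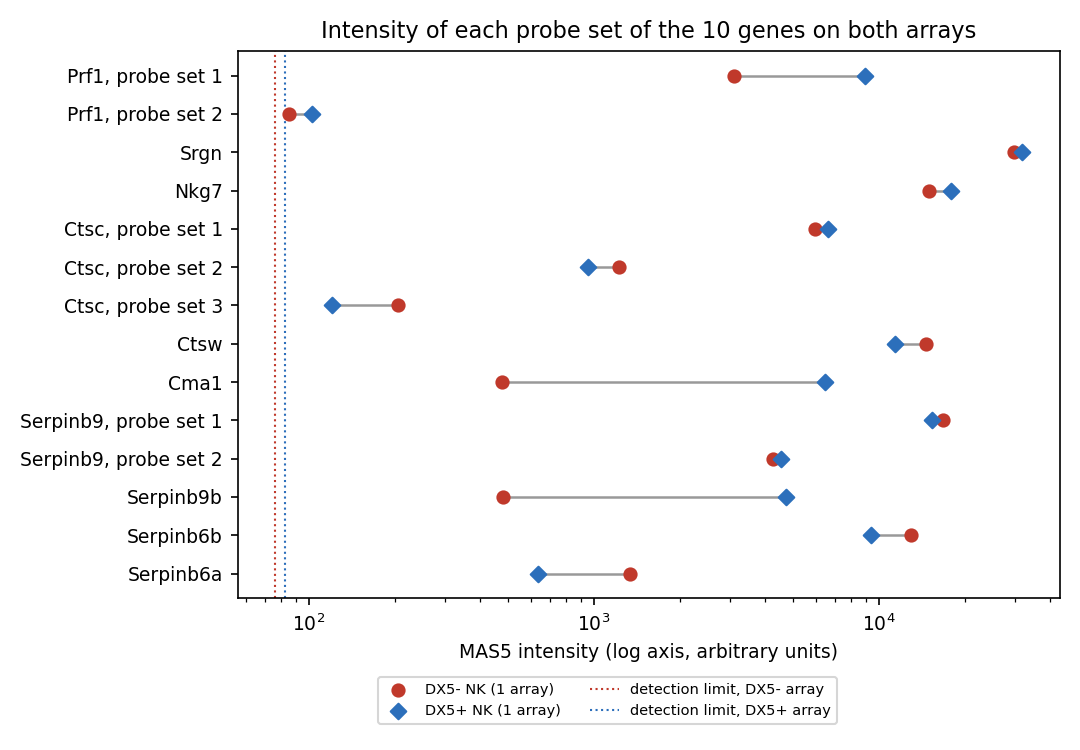
MAS5 intensity (log axis, arbitrary units) of each of the 14 probe sets of the 10 genes, with a circle for the DX5- array and a diamond for the DX5+ array. The long bars are Cma1 (476 against 6469), Serpinb9b (481 against 4706) and the brighter Prf1 probe set (3108 against 8978), and most other pairs of points nearly touch.

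**Figure D2:**
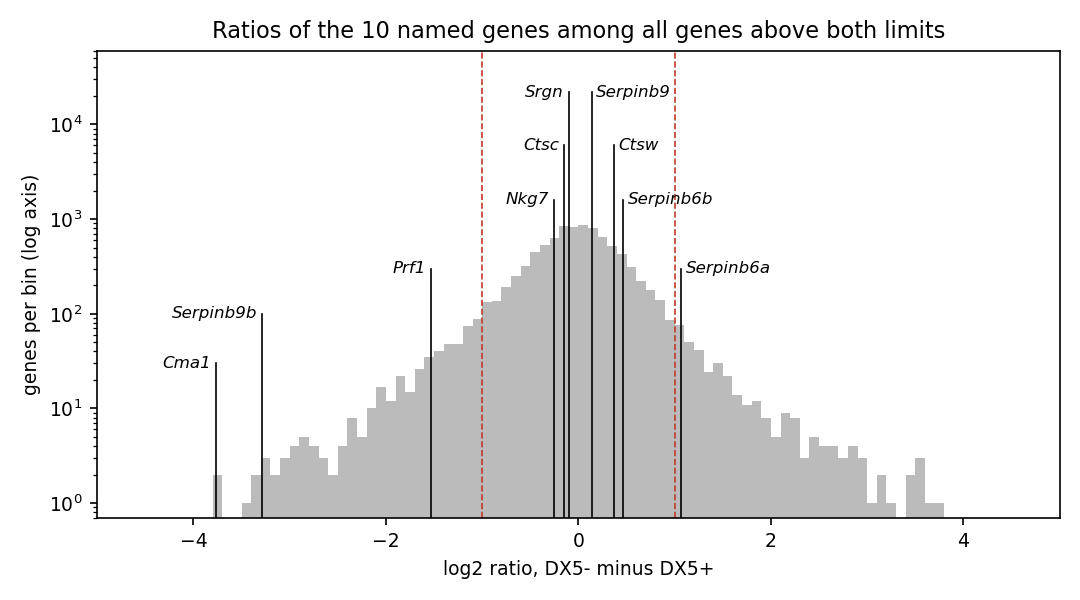
Histogram of the log2 ratio (DX5- minus DX5+) of the 9366 genes above both limits, in bins of equal width with the number of genes on a log axis; black lines mark the 10 genes and dashed lines mark 2-fold. Cma1 and Serpinb9b lie at the far left end, Prf1 in the left flank, Serpinb6a just past the right dashed line and the other 6 near the centre.

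Perforin is the pore-forming protein of the granule. Its brighter probe set (1451862_a_at) read 3108 in DX5- cells, against 8978 in DX5+ cells, a 2.89-fold lower value in DX5- cells (log2 ratio -1.53). Of the genes above both limits, 1.87% had a lower ratio. Its other probe set (1450335_at) read 85.0 in DX5- cells, against 103 in DX5+ cells, close to the detection limits, with a log2 ratio of -0.27. The dim probe set's ratio lies within the SD of 0.42 between probe sets of dim genes and gives no direction. The size for the gene rests on the brighter one: with the mean over both probe sets the log2 ratio was -0.90, less than 2-fold.

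Serglycin binds granzymes and perforin in the granule core. Srgn (1417426_at) read 29759 in DX5- cells, against 31906 in DX5+ cells, 1.07-fold apart. Nkg7 is a membrane protein of cytotoxic granules that takes part in their release in mouse lymphocytes. It (1450753_at) read 15032 in DX5- cells, against 17960 in DX5+ cells, 1.19-fold lower in DX5- cells. The granule matrix gene and the granule membrane gene therefore differed by less than 1.5-fold, as did 75.1% of all detected genes, while the gene of the pore-former was further apart.

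Because perforin and Nkg7 differed in ratio although both are granule genes of NK cells, the 250 bases before their annotated start are shown, from RefSeq promoter windows of build GRCm38.p6, 5′ to 3′ on the gene's strand. Capitals mark matches to 7 short motifs searched on both strands. They were AGGTGT (core site of T-box factors such as Eomes and T-bet), TGANTCA (AP-1), TTCNNNGAA (STAT), TGTGGT (Runx), TAACNG (Myb), CCGGAA (Ets) and the core of the interferon-stimulated response element (ISRE: GAAA, any 2 bases, GAAA), the last chosen after the windows had been seen.
Prf1 (chr10:61297586-61297835, plus strand): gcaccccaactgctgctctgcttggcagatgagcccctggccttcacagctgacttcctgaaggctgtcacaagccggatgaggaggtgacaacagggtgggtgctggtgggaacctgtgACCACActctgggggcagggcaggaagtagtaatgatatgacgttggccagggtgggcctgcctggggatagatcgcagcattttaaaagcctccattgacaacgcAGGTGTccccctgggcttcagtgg
Nkg7 (chr7:43436888-43437137, plus strand): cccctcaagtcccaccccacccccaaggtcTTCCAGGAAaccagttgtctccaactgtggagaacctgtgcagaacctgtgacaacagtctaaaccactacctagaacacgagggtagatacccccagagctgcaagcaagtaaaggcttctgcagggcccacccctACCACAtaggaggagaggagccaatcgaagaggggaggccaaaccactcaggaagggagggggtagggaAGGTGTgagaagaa
The T-box site AGGTGT was present in both windows, beginning 24 bases before the start of Prf1 and 14 bases before the start of Nkg7. It was in 11.8% of all 32851 windows. Both also held the Runx letters on the opposite strand, at 130 bases in Prf1 and 83 bases in Nkg7, a motif in 14.0% of windows. The Nkg7 window further held the STAT letters at 220 bases, a motif in 7.02% of windows. A match describes letters and not a bound site, and the pair shared 2 of these motifs while their ratios were -1.53 and -0.26.

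Perforin also had a neighbour with a low ratio. The nearest protein-coding gene after Prf1 on chromosome 10 in the RefSeq table is Pald1, which encodes paladin. Its probe set read 194 in DX5- cells, against 1298 in DX5+ cells, 6.71-fold lower in DX5- cells. The next protein-coding genes on either side of the 10 genes make up 16 distinct genes that are not themselves among the 10. Of these, 12 had a probe set and 8 were detected, and Pald1 was the 1 gene at least 2-fold apart. Among all detected genes 5.65% were lower and 3.76% higher by this much. At least 4-fold lower, as Pald1 was, were 0.882% of them. A share over 8 neighbours is too coarse to set beside these values, and a part of gene position was not tested. Vps26a and Kifbp beside Srgn were 1.33-fold and 1.01-fold lower in DX5- cells, and Fibp beside Ctsw 1.15-fold higher.

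Cathepsin C, also called dipeptidyl peptidase I, removes the terminal dipeptide that keeps granzymes inactive. Its brightest probe set (1416382_at) read 5982 in DX5- cells, against 6659 in DX5+ cells, 1.11-fold lower in DX5- cells. The second (1437939_s_at) read 1230 in DX5- cells, against 958 in DX5+ cells. The third (1446834_at) read 206 in DX5- cells, against 121 in DX5+ cells, 1.71-fold higher in DX5- cells. The probe sets of Ctsc therefore did not share a direction, with log2 ratios of -0.15, 0.36 and 0.77 in order of falling brightness, and no direction is given for the gene. Cathepsin W, or lymphopain, is a cysteine protease made mainly by NK cells and cytotoxic T cells. Ctsw (1422632_at) read 14683 in DX5- cells, against 11381 in DX5+ cells, 1.29-fold higher in DX5- cells. Cystatin F (Cst7), an inhibitor of cathepsin C in killer cells, read 3460 in DX5- cells, against 2412 in DX5+ cells, 1.43-fold higher in DX5- cells; it was chosen after its values were seen.

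Other lysosomal proteases and their inhibitors had a lower median than all genes. Of 19 listed cathepsins, legumain and cystatins 14 were detected, and the 2 past 2-fold, Ctsh and Ctss, were on the lower side in DX5- cells; with spike-in scaling 1 gene was, as Ctss was then under 2-fold. Their median log2 ratio was -0.41, and between -0.42 and -0.18 under the 4 other scalings. Ctsh, a lysosomal aminopeptidase, read 250 in DX5- cells, against 673 in DX5+ cells. Ctss, which processes the invariant chain in antigen-presenting cells, read 1497 in DX5- cells, against 3423 in DX5+ cells. Ctse, Lgmn and Ctsz were 1.66-fold, 1.65-fold and 1.53-fold lower in DX5- cells, and Ctsa, a lysosomal carboxypeptidase, 1.54-fold higher. Both genes past 2-fold are also expressed by myeloid cells such as macrophages, whose summed markers were 2783 in DX5- cells, against 8128 in DX5+ cells. Their part in these ratios was not tested.

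Cma1 had the largest ratio of the 10 genes. It encodes mouse mast cell protease 5, a chymase best known from the granules of mast cells, and its probe set (1449456_a_at) read 476 in DX5- cells, against 6469 in DX5+ cells. The value was 13.6-fold lower in DX5- cells (log2 ratio -3.76), and 1 of the 9366 genes above both limits had a lower ratio. Because Cma1 is a mast cell product, the markers of mast cells and basophils stand beside it. Of 16 listed markers, 14 had a probe set and 6 were detected, with a median log2 ratio of -0.69. The summed intensity of all 14 was 2834 in DX5- cells, against 3668 in DX5+ cells. Kit, level between the arrays, gave 1738.5 and 1738.9 of these sums. Leaving it out was not planned, and the sum without it was 1096 in DX5- cells, against 1929 in DX5+ cells. Cpa3, the carboxypeptidase stored with this chymase in mast cells, read 109 in DX5- cells, against 504 in DX5+ cells, 4.65-fold lower in DX5- cells. Il3ra, an interleukin 3 receptor chain, was at least 2.32-fold higher, and Gata2 was 1.72-fold lower. Hdc, which makes histamine, read 481 in DX5- cells, against 763 in DX5+ cells, 1.59-fold lower. Kit, the stem cell factor receptor of mast cells, read 1738.5 in DX5- cells, against 1738.9 in DX5+ cells. Fcer1a and Ms4a2, chains of the IgE receptor, the tryptase genes Tpsb2 and Tpsab1 and the proteases Mcpt1, Mcpt2 and Mcpt4 were below the limit on both arrays. Fcer1a read 1.3 in DX5- cells, against 77.1 in DX5+ cells, where it was just under the limit. Cpa3, Kit, Hdc and Gata2 were above the limit on both arrays, Mcpt8 on the DX5+ array alone and Il3ra on the DX5- array alone. The part of mast cells or basophils in the ratio of Cma1 was not tested.

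The window before Cma1 is shown because its ratio was the largest.
Cma1 (chr14:55944676-55944925, minus strand): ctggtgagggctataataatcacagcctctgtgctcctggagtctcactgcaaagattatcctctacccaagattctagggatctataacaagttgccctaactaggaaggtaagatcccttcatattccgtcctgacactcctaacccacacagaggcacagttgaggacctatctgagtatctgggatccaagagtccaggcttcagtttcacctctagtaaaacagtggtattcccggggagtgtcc
It held none of the 7 motifs, which says only that these letters are not in this window.

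Cma1 lies at 1 end of a protease cluster on chromosome 14 whose other end holds granzymes. In the RefSeq gene order the cluster from Cma1 to Gzmb has 15 protein-coding genes, of which 13 had a probe set. Of these 5 were above both limits, 1 above the limit on the DX5+ array alone and 7 below both. The ratios of the detected genes ran in both directions along the cluster. Gzmc read 13530 in DX5- cells, against 1099 in DX5+ cells, 12.3-fold higher in DX5- cells, and Gzmf, beside it, 402 in DX5- cells, against 93.2 in DX5+ cells. Gzmb, the last gene, read 32230 in DX5- cells, against 32238 in DX5+ cells. Gzme was 1.59-fold lower in DX5- cells. Mcpt8, a basophil protease gene, read 44.1, below the limit, in DX5- cells, against 124 in DX5+ cells. So a gene 13.6-fold lower and a gene 12.3-fold higher stood in the same cluster. Near-identical granzymes can cross-hybridise, so their ratios are uncertain.

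**Figure D3:**
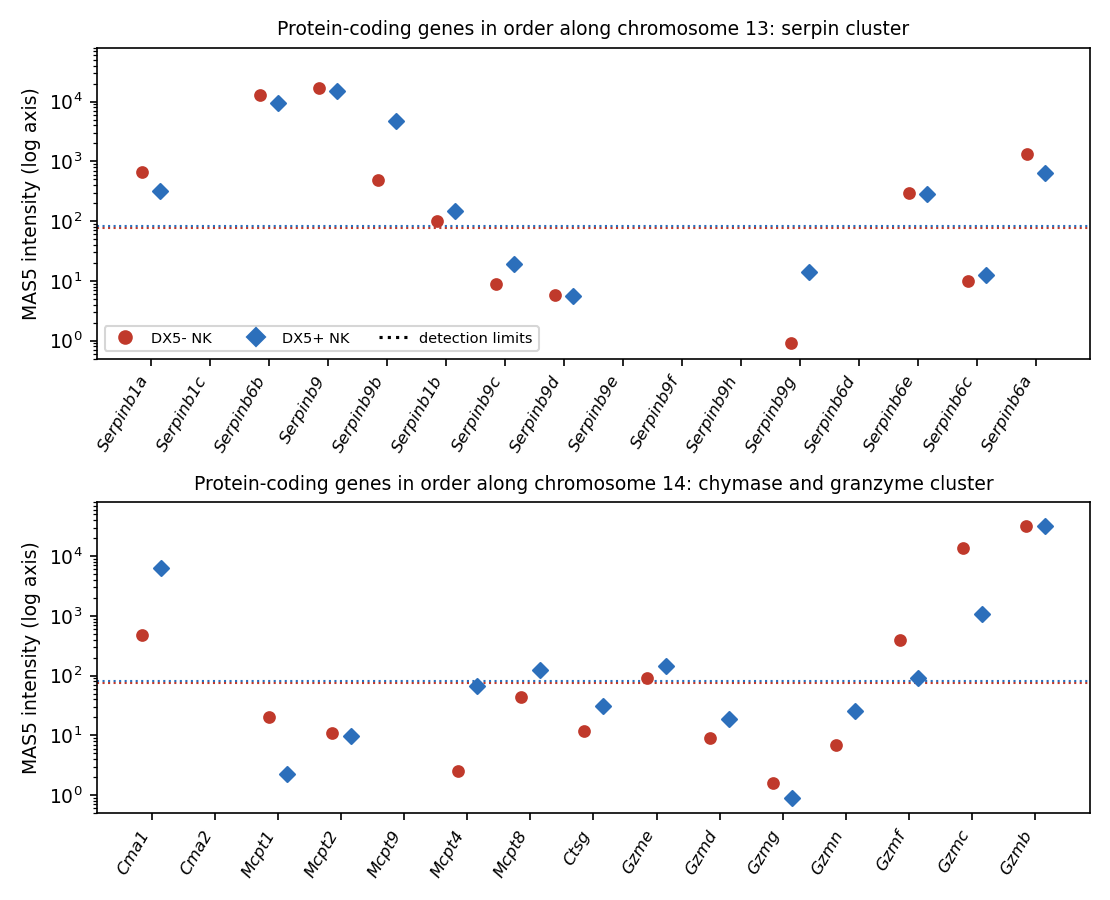
MAS5 intensity (log axis) on the DX5- array (circles) and the DX5+ array (diamonds) for protein-coding genes in RefSeq order along the serpin cluster of chromosome 13 (top) and the chymase and granzyme cluster of chromosome 14 (bottom), with dotted detection limits; a gene with no points has no probe set of its own. In the top panel Serpinb9b stands apart from its neighbours on either side, and in the bottom panel Cma1 and Gzmc are far apart between arrays in opposite directions.

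The 4 serpins had no common direction. Serpinb9 is the mouse counterpart of the human granzyme B inhibitor PI-9 and protects killer cells from their own granzyme B. Its brighter probe set (1422601_at) read 16823 in DX5- cells, against 15316 in DX5+ cells, 1.10-fold higher in DX5- cells. Its other probe set (1439790_at) read 4242 in DX5- cells, against 4552 in DX5+ cells, 1.07-fold lower. Serpinb9b, a close relative reported in mouse to inhibit granzyme M, read 481 in DX5- cells, against 4706 in DX5+ cells (1422668_at). It was 9.79-fold lower in DX5- cells (log2 ratio -3.29) and ranked 6 from the lowest among the 9366 genes. Granzyme M itself, Gzmm, read 161 in DX5- cells, against 435 in DX5+ cells, 2.69-fold lower in DX5- cells, whereas Gzmb was level.

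Serpinb6b, reported in mouse to inhibit granzyme A, read 12927 in DX5- cells, against 9364 in DX5+ cells, 1.38-fold higher in DX5- cells (1422804_at). Gzma, the gene of that protease, read 34866 in DX5- cells, against 38876 in DX5+ cells. Serpinb6a, a widely expressed serpin whose human counterpart inhibits cathepsin G, read 1336 in DX5- cells, against 637 in DX5+ cells (1450138_a_at). It was 2.10-fold higher in DX5- cells, with 3.03% of genes above both limits at that ratio or higher, and 1.95-fold higher once an offset of 100 was added to every intensity. The bright serpins Serpinb9 and Serpinb6b thus differed by under 1.5-fold, and Serpinb9b and Serpinb6a were past 2-fold in opposite directions.

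All 4 serpin genes belong to a cluster on chromosome 13 that runs from Serpinb1a to Serpinb6a with 16 protein-coding genes, of which 11 had a probe set and 7 were above both limits. In RefSeq order Serpinb9b follows Serpinb9, which follows Serpinb6b. Ratios along the cluster were not shared by neighbours. Serpinb1a, an inhibitor of neutrophil serine proteases, read 671 in DX5- cells, against 325 in DX5+ cells, 2.06-fold higher in DX5- cells. Serpinb6b, Serpinb9 and Serpinb9b came next with log2 ratios of 0.47, 0.14 and -3.29. Serpinb1b, on the far side of Serpinb9b, read 99.2 in DX5- cells, against 149 in DX5+ cells, 1.501-fold lower. Serpinb6e, further along, read 300 in DX5- cells, against 283 in DX5+ cells. A probe set shared by Serpinb9e, Serpinb9f, Serpinb9g and Serpinb9h names no single gene and was not used.

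The windows before the adjacent genes Serpinb9 and Serpinb9b are shown because these relatives had log2 ratios of 0.14 and -3.29. Capitals mark the ISRE core, found on the opposite strand, in Serpinb9 and the stretch aligned to it in Serpinb9b.
Serpinb9 (chr13:33004291-33004540, plus strand): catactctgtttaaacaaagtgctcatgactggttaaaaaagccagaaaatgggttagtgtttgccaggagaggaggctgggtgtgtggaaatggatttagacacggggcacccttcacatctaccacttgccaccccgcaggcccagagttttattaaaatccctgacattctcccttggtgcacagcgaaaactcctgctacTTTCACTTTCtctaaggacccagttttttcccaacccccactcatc
Serpinb9b (chr13:33027164-33027413, plus strand): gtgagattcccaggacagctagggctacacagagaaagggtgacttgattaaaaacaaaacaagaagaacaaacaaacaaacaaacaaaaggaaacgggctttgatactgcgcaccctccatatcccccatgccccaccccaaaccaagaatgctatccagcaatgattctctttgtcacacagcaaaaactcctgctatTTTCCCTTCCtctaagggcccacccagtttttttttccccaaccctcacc
In a global alignment 154 of 225 aligned bases were identical (68.4%), and the longest shared run was 13 bases. The other 14 pairs among the windows of the 4 serpins, Cma1 and Prf1 had 53.1% to 67.2% identical aligned bases. Their longest runs were 7 to 9 bases. As a share of the whole window, identical bases made up 61.6% for Serpinb9 with Serpinb9b. The other 14 pairs ran from 36.8% (Serpinb9b with Serpinb6b) to 54.8% (Serpinb6a with Cma1) by that measure. The pair was thus highest by each measure, narrowly so among aligned bases. Some of the other pairs joined serpins to each other, so they are not all unrelated windows. The ISRE core began 46 bases before the start of Serpinb9 and was in 2.98% of all windows. Over these 10 bases Serpinb9b differed by A5C and T9C, counted from the 5′ end of the capital stretch with the Serpinb9 base first. A5C lies in the bases that the motif leaves free, and T9C is the difference that ends the match. Among the 9 genes with a window (Ctsw had none), the ISRE core was also present before Srgn and Serpinb6a. The motif was chosen after the sequences were seen, and the windows say nothing about binding.

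Of the other intracellular clade B serpins, few were measurable. Of 23 listed, 14 had a probe set and 4 were detected, and Serpinb1a was past 2-fold higher in DX5- cells. The gene past 2-fold on the other side was Serpinb2, the plasminogen activator inhibitor of macrophages. It read 68.9, below the limit, in DX5- cells, against 499.5 in DX5+ cells, at least 6.57-fold lower.

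Genes of granule maturation, docking and release had log2 ratios from -1.09 to 0.999, with 18 above 0 and 11 below. Of 31 listed 29 were detected, and 1 of them was past 2-fold, on the lower side in DX5- cells. Their median log2 ratio was 0.27, between 0.29 and 0.50 under the 4 other scalings and 0.072 with the dimmest detected probe set of each gene. With spike-in scaling 3 were past 2-fold higher and 0 past 2-fold lower. Slc29a3, a lysosomal nucleoside transporter gene, read 258 in DX5- cells, against 550 in DX5+ cells, 2.13-fold lower in DX5- cells. Unc13d, which primes granules for fusion, read 865 in DX5- cells, against 466 in DX5+ cells, 1.86-fold higher. Hps4 and Hps1, partners in the biogenesis of lysosome-related organelles, were 1.999-fold and 1.75-fold higher in DX5- cells. The Hps1 value is that of its brightest probe set. Another Hps1 probe set above both limits read 115.8 in DX5- cells, against 104.8 in DX5+ cells. Lamp2, a lysosomal membrane protein gene, was 1.80-fold lower, and the vesicle fusion gene Vamp2 1.54-fold higher. No gene of this list was as far apart as Cma1 or Serpinb9b, nor as Prf1 by its brighter probe set; Prf1 by the mean over its probe sets, at -0.90, was less far apart than Hps4, at 0.999.

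Granzymes, the proteases that these proteins store, activate and inhibit, were split. Of 10 listed, 7 were detected, of which Gzmc and Gzmf were past 2-fold higher in DX5- cells, whereas Gzmm and Gzmk were past 2-fold lower. Gzmk read 86.2 in DX5- cells, against 284 in DX5+ cells, 3.30-fold lower in DX5- cells.

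**Figure D4:**
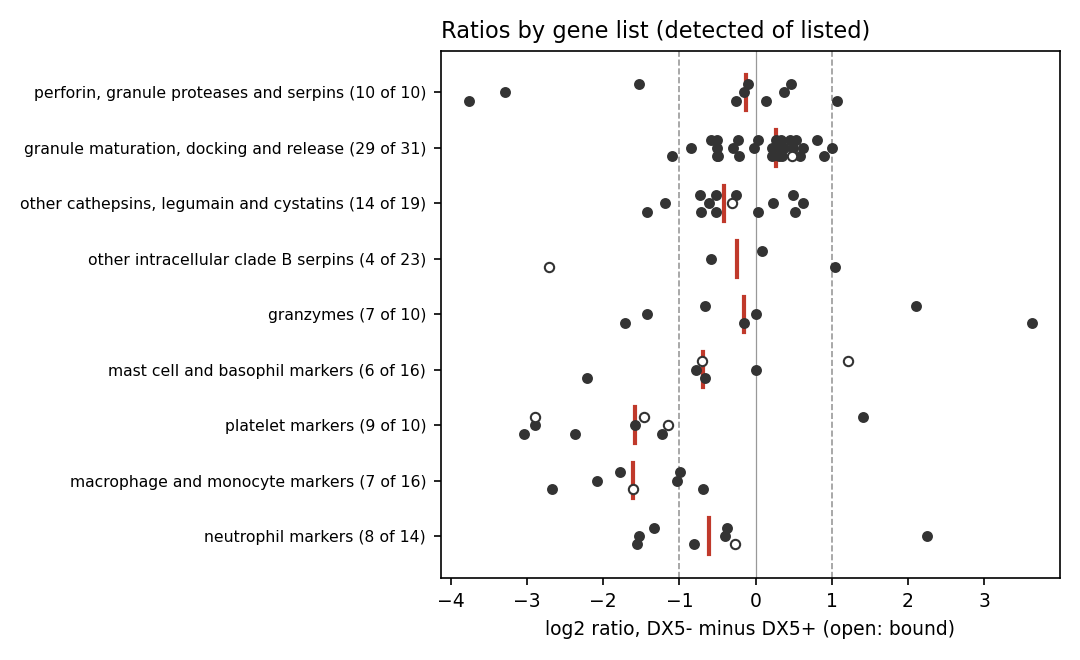
Log2 ratio (DX5- minus DX5+) of each detected gene in the 10-gene group, in 4 lists of related genes and in 4 lists of markers of other cells, with filled points for genes above both limits, open points for bounds, red bars for list medians and dashed lines at 2-fold. The granule release genes cluster within 2-fold, whereas the platelet and macrophage markers lie mostly left of the lower dashed line.

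As deposited, most detected platelet and macrophage markers were past 2-fold lower in DX5- cells, the side of Prf1, Cma1 and Serpinb9b. Neutrophil markers were mixed, and of 13 detected T cell markers 7 were past 2-fold higher. Of 9 platelet markers with a probe set 8 were past 2-fold lower and Itgb3 was 2.66-fold higher, and their summed intensity was 1714 in DX5- cells, against 6237 in DX5+ cells. Clec1b and Ppbp were 8.26-fold and 7.45-fold lower. By its brighter probe set Gp1bb was at least 7.42-fold lower. The other Gp1bb probe set, above both limits, read 93.9 in DX5- cells, against 129.2 in DX5+ cells, less than 2-fold apart. Of 16 macrophage and monocyte markers 7 were detected and 5 of these were at least 2-fold lower, with a summed intensity of 2783 in DX5- cells, against 8128 in DX5+ cells over all 16. Csf1r is counted among the 5 by its brightest probe set, and its probe sets disagreed. The others read 95.6 and 111.6 in DX5- cells, against 21.8 and 129.5 in DX5+ cells. Under each of the 4 other scalings 4 of the macrophage and monocyte markers were at least 2-fold lower, and with an offset of 100 added 3 were. Lyz1, Mpeg1 and Lyz2 were 6.40-fold, 4.25-fold and 3.44-fold lower, while C1qa, C1qb, C1qc, Clec4f and Timd4 of Kupffer cells were below the limit on both arrays. The Lyz1 value is that of its brightest probe set. Another read 122 in DX5- cells, against 868 in DX5+ cells. The third, below both limits, read 54.1 in DX5- cells, against 22.6 in DX5+ cells. Of 12 neutrophil markers with a probe set 8 were detected, 3 past 2-fold lower and 1 past 2-fold higher, with sums of 4918 in DX5- cells, against 10111 in DX5+ cells. S100a8 gave 1998 and 5021 of these sums and S100a9 1021 and 2958, so most of the difference came from these genes. All such sums weigh bright probe sets most and do not measure a number of cells. Ngp and S100a9 were 2.94-fold and 2.90-fold lower, and Mmp9 4.74-fold higher. Srgn, which platelets, neutrophils and mast cells also make in quantity, was 1.07-fold apart. As killer cells pack their granules with it too, this value does not measure the share of those other cells. The part of these cells in the ratios of Prf1, Cma1, Serpinb9b, Ctsh, Ctss and Serpinb2 was not tested.

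Markers that separate liver-resident from circulating NK cells also differed between the arrays, in both directions. Of 9 with a probe set, S1pr5, Eomes, Cx3cr1, Klrg1 and Itgam were lower in DX5- cells by 4-fold or more, on the side of Cma1 and Serpinb9b. Cxcr6, Itga1 and Tnfsf10 were higher in DX5- cells by 4-fold or more, on the side of Gzmc. S1pr5, a receptor used in tissue exit, read 35.8, below the limit, in DX5- cells, against 1531 in DX5+ cells.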

How the data were processed

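Both arrays were used: 1 of DX5- NK cells and 1 of DX5+ NK cells. The deposited table holds 1 linear intensity per probe set and array, which the authors made with MAS5, per the submitters' processing notes, which name no version. The mean after trimming 2% at each end was 500.0 on both arrays. No detection calls were used, so no error can be put on an intensity. The number of arrays limits the precision. Probe sets with exactly 1 symbol (34958 of 45101; 932 had several and 9211 were unnamed here) were matched by gene identifier to RefSeq (GRCm38.p6; 34754 matched, 0 renamed). A gene was represented by the probe set brightest in mean log2 intensity. Ratios are log2 of the deposited intensities, DX5- minus DX5+, with no offset. A value below the detection limit on 1 array was set to the limit, giving a bound ("at least"). The limit left out the Crybg genes, which are not lens crystallins. With 1 array per group no test was possible and no p-value is given; a p-value across genes would not measure replicate error. The members and the 11 other gene lists (175 distinct genes) were chosen with earlier results of these data known. Text names all 10 members and up to 6 detected genes per related list or 3 per marker list, by largest ratio, plus neighbours in gene order; other names are chosen after their values were seen, the sort and resident or circulating markers and the genes named as below the limit included. Promoter windows are from RefSeq (GRCm38.p6); 9 of 10 members matched, and protein sequences were not used here. The steps were run on simulated data with planted fold changes and noise of the SD between probe sets of a gene. That noise holds no error between replicate arrays, so the simulation says nothing about it. Python 3.11.15, pandas 2.3.3 and statsmodels 0.14.6 were used.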

Additional observations from a re-analysis of the deposited data

How the results depend on the processing

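The ratios of the 10 members, their 3 counts past 2-fold or 4-fold and their median were recomputed with 4 other scalings, 3 other detection limits, 2 offsets and 3 other ways to represent a gene. Of 168 recomputed values 163 moved by less than the SD between probe sets of a gene (0.34) or, for counts, by no more than 1.5 times, and 5 moved further. Many of these values could not move. All 10 members were above every limit, so the 3 other limits left their ratios unchanged. A member with 1 probe set has the same ratio however a gene is represented. A fall from 3 to 2 lower members is within 1.5 times. The number 163 is therefore no measure of how firm the ratios are. With the mean over probe sets the log2 ratio of Prf1 was -0.90 and that of Ctsc 0.33. With the dimmest detected probe set they were -0.27 and 0.77, since these genes have probe sets that disagree in size or direction. The count of members at least 2-fold lower was then 2, without Prf1, in both cases. With an offset of 100 the number of members at least 2-fold higher in DX5- cells was 0, since Serpinb6a stood close to 2-fold. The log2 ratio of Cma1 ran from -3.77 to -3.51 and that of Serpinb9b from -3.29 to -3.05 over all alternatives. Over all genes, 1890 were at least 2-fold higher and 2840 lower with no detection limit, 242 and 327 with an offset of 100, and 720 and 385 with spike-in scaling, against 400 and 602 as reported. Single genes outside the members were not recomputed one by one. No replicate could be left out, with 1 array per group. No paired analysis was possible because each group has 1 array. Genes near the detection limit, such as the dim Prf1 probe set, have ratios that signal over background cannot resolve.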
